A study of Mus musculus with 12 samples.

Results

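The receptors described here are those through which haematopoietic growth factors act on myeloid cells and their precursors. The 9 genes were taken by symbol from the 55401 gene IDs of the count table: Csf1r, Kit, Flt3, Csf2ra, Il3ra, Csf2rb, Csf2rb2, Csf3r and Il7r. All 9 were found, each as 1 row, and 8 passed the filter on low counts. Flt3 did not. RNA was sequenced from mouse bone marrow derived macrophages of the C57BL6 background, which are bone marrow cells kept for 7 days in medium with 20 ng/mL of macrophage colony-stimulating factor (M-CSF). The old group held 6 libraries from animals aged 12 months, and the young group held 6 libraries from animals aged 8 weeks. Both groups were thus grown in the same factor, the ligand of Csf1r, with no other growth factor or treatment on the labels, and neither group carries a named allele. The labels number the libraries as biological replicates and do not say whether each came from 1 animal, so each p-value reflects only how far the libraries spread, which may be technical.

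Growth factor receptors of myeloid cells fall into 2 structural families. Csf1r, Kit and Flt3 are receptor tyrosine kinases that dimerise on their ligand and phosphorylate themselves. The remaining receptors have no kinase of their own and signal through bound JAK kinases and STAT factors. M-CSF acting on Csf1r drives survival, growth and differentiation of macrophages, and it is the factor by which marrow cells are turned into macrophages in culture. Stem and progenitor cells are known for Kit and Flt3, neutrophils for Csf3r and lymphocytes for Il7r.

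Counts assigned to genes ranged from 19345587 to 22356812 in old libraries and from 22150081 to 25169045 in young libraries. Macrophage markers were high as a sum in all 12 libraries. The 13 genes of that list summed to between 34016 and 46145 CPM (counts scaled to library size) in old libraries and between 27986 and 49534 CPM in young libraries, and none of the genes was at 0 throughout. Lyz2 made up most of each sum, at 30259.9 ± 3209 CPM in old and 30704 ± 5454 CPM in young libraries (SD, n = 6 each). Cx3cr1 of the same list held only 3.64 to 12.7 CPM in old and 3.8 to 19.5 CPM in young libraries. Single libraries stood apart within their group. Cell cycle genes were highest in old replicates 2 and 3 and young replicate 6, and T cell transcripts exceeded 2 counts in old replicate 6 only (Cd3e, Cd3d, Cd3g and Thy1). Values without these libraries are given below for many results but not for every one, and fold changes near 0 could turn in sign without them.

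In the annotation used (GRCm38), Csf1r (ENSMUSG00000024621) lies on chromosome 18, Kit (ENSMUSG00000005672) at chr5:75574916-75656722 and Flt3 (ENSMUSG00000042817) at chr5:147330741-147400489. Csf2ra (ENSMUSG00000059326) lies at chr19:61223957-61228429 and Il3ra (ENSMUSG00000068758) at chr14:14346275-14356011. Csf2rb (ENSMUSG00000071713), Csf2rb2 (ENSMUSG00000071714) and Il7r (ENSMUSG00000003882, chr15:9505788-9530176) lie on chromosome 15, and Csf3r (ENSMUSG00000028859) at chr4:126024550-126044440. Values are for whole genes, summed over exons.

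Csf1r stood far above the other receptors. Its level per transcript length was 2230.0 ± 286 TPM (transcripts scaled for length and depth) in old and 2173 ± 418 TPM in young libraries (SD, n = 6 each). It ranked 52nd of the 24139 genes with a count by mean TPM, and it made up 62.8% to 73.7% of the summed TPM of the 9 receptor genes in old libraries and 63.0% to 74.1% in young libraries. The next gene, Csf2ra, lay 8.22-fold lower by the median over libraries, and the ranges of these genes did not touch. Reads that fall where exons of 2 genes overlap are left out by the counting program, and 873 of the 5774 exonic bases of Csf1r, which lies on chromosome 18, are shared with Hmgxb3 on the other strand. The counted level of Csf1r therefore leaves out part of its transcript.

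A group of 6 receptor chains formed a middle band. In order of mean TPM over the 12 libraries these were Csf2ra (288), Csf2rb2 (202), Csf2rb (113), Csf3r (104), Il7r (86.9) and Il3ra (83.5). Csf2ra was above Csf2rb2 in 12 of 12 libraries and Csf2rb2 was above Csf2rb in 12 of 12, although the ranges over libraries overlapped in both cases. These places depend on the length that counts are divided by: in CPM, with no length, Csf2rb2 came before Csf2ra and Il7r before Csf3r. Lower down the order was not kept by every library. Csf2rb exceeded Csf3r in 8 of 12 libraries, Csf3r exceeded Il7r in 10 of 12, and Il7r exceeded Il3ra in 5 of 12. Neighbours among these 4 genes thus overlapped, while the first of them, Csf2rb, exceeded the last, Il3ra, in 11 of 12 libraries.

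Kit and Flt3 lay at the foot of the order. Kit was at 3.76 ± 1.77 TPM in old and 2.52 ± 0.778 TPM in young libraries (SD, n = 6 each), and Il3ra exceeded it at least 12.1-fold in every library. Flt3 was at 0.180 ± 0.0890 TPM in old and 0.0949 ± 0.0515 TPM in young libraries (SD, n = 6 each). Its raw counts ran from 4 to 16 in old and from 2 to 8 in young libraries, and all 12 were even, as when both mates of a pair are counted. In 2 young libraries it held 2 counts, within the 3 that a count of 0 allows if each count is a separate event. That limit would be higher if both mates were counted, and no fold change is given for Flt3.

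**Figure D1:**
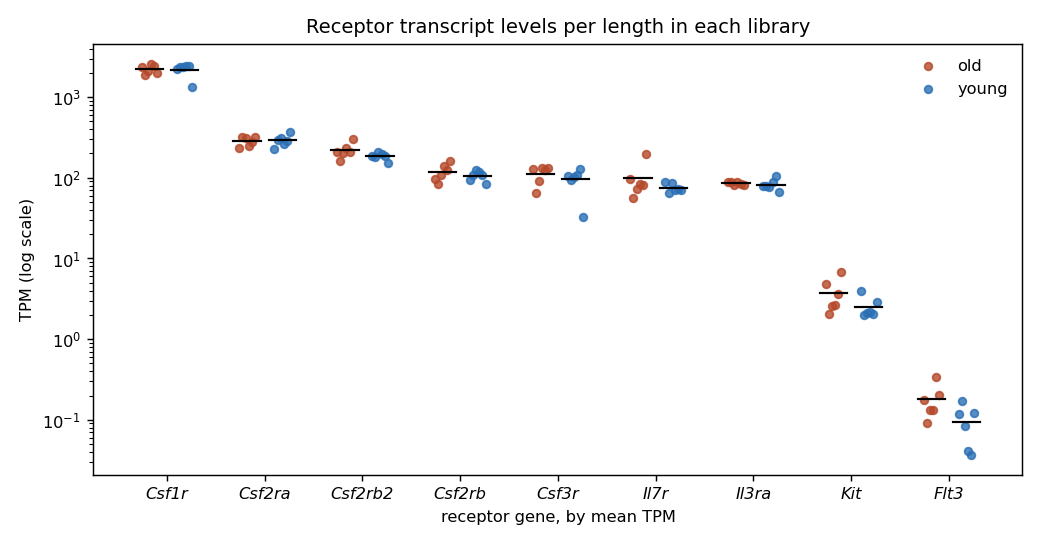
Level in TPM of the 9 receptor genes in each library, on a log axis, with old libraries in red to the left of young libraries in blue and a black bar at each group's mean (n = 6 each). Csf1r averages 2202 TPM, a middle band runs from Csf2ra to Il3ra, and Kit and Flt3 lie far below with the groups overlapping for every gene.

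Csf2ra encodes the chain that gives the receptor for granulocyte-macrophage colony-stimulating factor (GM-CSF) its ligand specificity, and Il3ra encodes the corresponding chain for interleukin 3. Both need a beta chain to signal. Mice have 2 of these. Csf2rb encodes the common beta chain, shared by the GM-CSF, interleukin 3 and interleukin 5 receptors, and Csf2rb2 encodes a chain that pairs with the interleukin 3 receptor only. The genes lie next to each other on chromosome 15 in opposite directions, Csf2rb at chr15:78325752-78353847 on the plus strand and Csf2rb2 at chr15:78282507-78305721 on the minus strand (GRCm38). Their coding sequences, 2688 and 2634 bases in the longest annotated forms, are 95.2% identical over 2628 aligned bases. How alike they are bears on every count of the pair, so 90 coding bases of each are shown, from coding base 89 to 178 in 1 exon, with the 4 differing bases in capitals. The stretch of Csf2rb lies at chr15:78336348-78336437 and that of Csf2rb2 at chr15:78297013-78297102.
Csf2rb: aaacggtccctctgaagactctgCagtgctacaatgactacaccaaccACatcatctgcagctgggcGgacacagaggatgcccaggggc
Csf2rb2: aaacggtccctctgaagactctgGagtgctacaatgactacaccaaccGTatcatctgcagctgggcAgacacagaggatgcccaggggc

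A read counts for 1 of these genes only where it spans a difference. Of the windows of 50 bases in the longest Csf2rb transcript, 18.4% occur unchanged in a Csf2rb2 transcript, and 6.96% of windows of 100 bases do. For Csf2rb2 the shares were 19.0% and 7.20%. Reads within such windows align to both genes and were not counted, so both levels are somewhat low and reads with sequencing errors may be split between the genes. With this limit, Csf2rb2 was the more abundant per length, at 1.86 ± 0.163 times Csf2rb in old and 1.75 ± 0.128 times in young libraries (SD, n = 6 each). The lowest ratio in any library was 1.64 and the highest was 2.13. Most of this came from the length used, all exonic bases of the gene (4740 for Csf2rb2 and 7277 for Csf2rb). Divided by the longest transcript (4740 and 4900 bases), the ratio was 1.25 ± 0.110 in old and 1.18 ± 0.0864 in young libraries (SD, n = 6 each), and above 1 in 12 of 12 libraries. This second length was chosen after the data were seen. Over the ligand-binding chain Csf2ra, the TPM ratio of Csf2rb was 0.424 ± 0.110 in old and 0.375 ± 0.0778 in young libraries (SD, n = 6 each). This ratio too depends on dividing by all exonic bases. In CPM, with no length, the means over all libraries were 280.1 for Csf2rb and 282 for Csf2ra.

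Whether the receptors differ with the age of the donor was asked in a fit over all genes. No receptor gene was called higher or lower in old macrophages. Of all 12620 genes tested with edgeR's quasi-likelihood test, 2 passed an adjusted p of 0.05, which is 0.0158%, and none of the 8 receptor genes was among them. None of the 8 had an unadjusted p below 0.05 in this fit, and DESeq2 and limma voom called 0 of them too. The groups did not separate for any receptor, where 0.206% of all genes tested had groups that did not overlap. The log2 fold changes of the 8 genes had a median of 0.14, with 5 positive and 3 negative, against a median of -0.0104 over all genes tested.

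Among the receptor tyrosine kinases, Csf1r held 3538, 4288 and 5197 CPM in old libraries (lowest, median and highest) and 2524, 4520.2 and 5371 CPM in young libraries. The old values lay inside the range of the young ones. The log2 fold change of Csf1r was -0.02 with a 95% interval from -0.35 to 0.32 (edgeR adjusted p = 0.98), so that a fold change below 0.783 or above 1.25 lies outside the interval. The low end of the young group was young replicate 6, and without it the log2 fold change was -0.13. It was 0.04 without old replicate 2.

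Kit, the receptor for stem cell factor, gave the largest log2 fold change of the 8 genes. It held 5.95, 9.65 and 19.6 CPM in old libraries (lowest, median and highest) and 5.92, 6.97 and 12.2 CPM in young libraries. The 3 highest libraries were old replicate 6, old replicate 1 and young replicate 1, and the groups overlapped. The log2 fold change was 0.53 with a 95% interval from -0.08 to 1.13, and it was not called (edgeR adjusted p = 0.77). It was 0.29 without old replicate 6 and 0.81 without young replicate 6 and old replicates 2 and 3, with edgeR adjusted p-values of 1.0 and 0.19. Mast cells are the mature marrow-derived cells best known for Kit. Of 10 mast cell and basophil markers 2 passed the filter, Tpsb2, Tpsab1 and Mcpt4 were at 0 in all 12 libraries, and the list summed to between 0.711 and 2.67 CPM in old and between 1.05 and 3.98 CPM in young libraries. The highest sum was that of young replicate 5, which held 7.01 CPM of Kit, and old replicate 6 had a sum of 1.87 CPM.

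Flt3, the receptor for Flt3 ligand and a marker of dendritic cells and their precursors, held 0.186, 0.327 and 0.722 CPM in old libraries (lowest, median and highest) and 0.0866, 0.209 and 0.353 CPM in young libraries. The groups overlapped. The highest value was that of old replicate 5, with 16 counts. The 9 dendritic cell markers summed to between 33.5 and 95.1 CPM in old and between 33.3 and 53.5 CPM in young libraries. Itgax made up most of each sum, at 79.5 CPM in old replicate 6 and 48.8 CPM in young replicate 6. The sums are thus mostly the level of that gene, and Zbtb46, Xcr1 and Ccr7 did not pass the low-count filter. The highest sum was that of old replicate 6, where Flt3 was at 0.414 CPM.

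The GM-CSF and interleukin 3 receptor chains were close between the ages. Csf2ra held 233, 281 and 306 CPM in old libraries (lowest, median and highest) and 227, 288 and 349 CPM in young libraries. The old libraries lay within the young range, and the log2 fold change was -0.08 with a 95% interval from -0.30 to 0.14 (edgeR adjusted p = 0.86). Il3ra held 78.3, 85.7 and 90.5 CPM in old libraries and 65.3, 79.2 and 118 CPM in young libraries. Again the old values were the tighter set and lay inside the young range. Its log2 fold change was -0.01 with a 95% interval from -0.26 to 0.25 (edgeR adjusted p = 0.99). It was 0.02 without old replicate 3 and -0.07 without young replicate 6, and that of Csf2ra was -0.02 without young replicate 6.

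The beta chains had positive and uncalled fold changes. Csf2rb held 201, 283 and 383 CPM in old libraries (lowest, median and highest) and 201, 284 and 307 CPM in young libraries, and its log2 fold change was 0.11 with a 95% interval from -0.22 to 0.44 (edgeR adjusted p = 0.87). Csf2rb2 held 249.8, 339 and 465 CPM in old libraries and 239, 317 and 340.4 CPM in young libraries. Its log2 fold change was 0.19 with a 95% interval from -0.09 to 0.48 (edgeR adjusted p = 0.77). For both genes old replicate 6 was the highest of the 12 libraries, and old replicate 4 came next. Without old replicate 6 the log2 fold change was 0.02 for Csf2rb and 0.10 for Csf2rb2.

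Csf3r, the receptor for granulocyte colony-stimulating factor, was among the most variable genes. It held 77.7, 155 and 164 CPM in old libraries (lowest, median and highest) and 39.0, 128 and 179.8 CPM in young libraries. The lowest library of all was young replicate 6 and the next was old replicate 2, and the groups overlapped. The log2 fold change was 0.17 with a 95% interval from -0.49 to 0.82 (edgeR adjusted p = 0.90), and it was -0.02 without young replicate 6. Csf3r is a neutrophil marker as well. The 12 neutrophil markers summed to between 27.6 and 78.5 CPM in old and between 28.6 and 48.5 CPM in young libraries. Ly6g, which defines mouse neutrophils, was at 0 in 10 libraries and at 2 counts in the other two. The largest part differed between libraries. Mmp8 made up 27.1 of 50.4 CPM in old replicate 2, while in old replicate 4, with the highest sum, S100a9 held 25.8 and Mmp8 13.4 CPM. By the mean log2 CPM of the 8 markers that passed the filter, the lowest libraries were old replicate 6 (0.15) and young replicate 6 (0.17), which held 154 and 39.0 CPM of Csf3r, and the others lay between 1.27 and 2.67. The part of neutrophils in the Csf3r level was not tested.

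Il7r, the ligand-binding chain of the interleukin 7 receptor and a chain of the receptor for thymic stromal lymphopoietin (TSLP), held 85.4, 133 and 304 CPM in old libraries (lowest, median and highest) and 100.3, 124 and 144 CPM in young libraries. A single library made most of the difference between the groups. Old replicate 6 was at 304 CPM, and the other old libraries ran from 85.4 to 156 CPM. The log2 fold change was 0.33 with a 95% interval from -0.23 to 0.88 (edgeR adjusted p = 0.78), and 0.01 without old replicate 6.

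T cells are known for Il7r, and old replicate 6 was the library with T cell transcripts. It held 44 counts of Cd3e, 88 of Cd3d, 98 of Cd3g and 342 of Thy1. No other library held more than 2 counts of any of these. The 12 lymphoid markers, of which 1 passed the filter, summed to 32.0 CPM in that library, to between 1.31 and 3.11 CPM in the other old libraries and to between 2.34 and 3.84 CPM in young libraries, and Rag1 was at 0 in all 12. The part of these cells in the Il7r level of that library was not tested. In the other 11 libraries, with Cd3e, Cd3d, Cd3g and Thy1 at 0 to 2 counts, Il7r was still at 85.4 CPM or more. In bulk RNA, more cells of a type and more RNA per cell cannot be told apart.

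**Figure D2:**
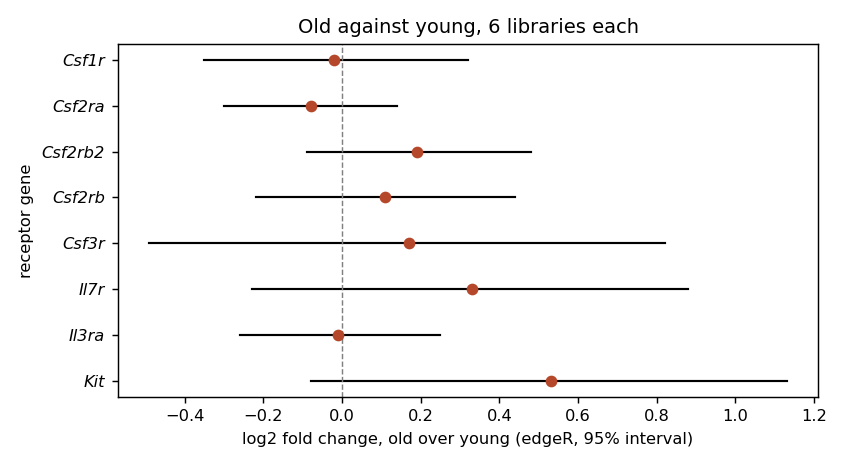
Log2 fold change of old over young for the 8 receptor genes that passed the low-count filter (points, edgeR over all 12 libraries) with 95% intervals (lines). Every interval crosses 0, and the widest are those of Csf3r, from -0.49 to 0.82, and Kit, from -0.08 to 1.13.

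The receptors differed in how far they varied between libraries of 1 age. The SD of log2 CPM within groups was 0.624 for Csf3r, 0.526 for Kit and 0.460 for Il7r. Among the 9424 genes of at least 5 CPM these lay at the 96.0th, 94.5th and 92.8th percentile. Without old replicate 6 the SD of Il7r was 0.268, at the 77.5th percentile, and without young replicate 6 that of Csf3r was 0.364 and that of Csf1r 0.181. Without young replicate 5 that of Il3ra was 0.136. Csf2ra (0.188) and Il3ra (0.217) were steadier, at the 52.4th and 62.9th percentile, and Csf1r (0.313), Csf2rb (0.303) and Csf2rb2 (0.252) came between, at the 83.3rd, 81.8th and 72.5th. The biological coefficient of variation in edgeR was 36.1% for Csf3r, against 15.8% for the trend at its abundance. For Csf1r it was 19.6%, against 16.3%.

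The spread itself was compared between the ages. The coefficient of variation of Il7r was 50.6% in old and 13.8% in young libraries, that of Kit 46.2% and 29.8%, and that of Il3ra 6.16% and 21.8% (old then young, n = 6 each). Single libraries carried much of this. Without old replicate 6 the coefficient of Il7r in old libraries was 21.8%, without young replicate 5 that of Il3ra in young libraries was 12.3%, and without young replicate 1 that of Kit in young libraries was 13.4%. For a two-sided permutation test, the absolute deviation of each library from its own group's median was taken once. These deviations were then reassigned to the groups in all possible ways. The medians were not computed anew, so p is approximate. It was 0.30 for Il7r, 0.14 for Kit and 0.17 for Il3ra, each with an adjusted p of 1.0 over all genes tested. No receptor gene was called, none had an unadjusted p below 0.05, and 0.0% of the 12620 genes were called (2.88% at an unadjusted p below 0.05). The smallest p that this test can give is 0.0022, and 547 genes would have to reach it before any adjusted p could pass. Since 43 genes did, the adjusted values say little about single genes.

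**Figure D3:**
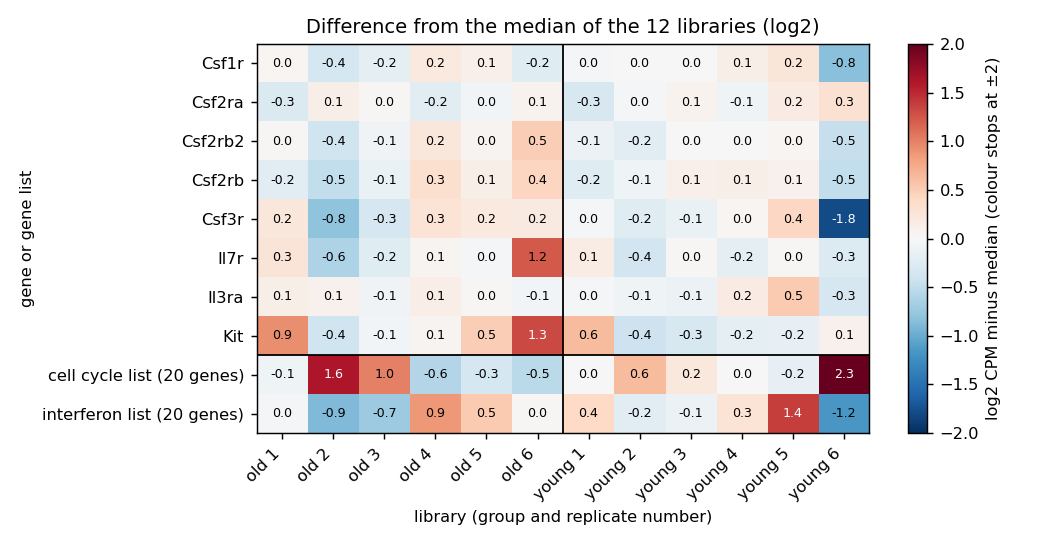
Log2 difference of each receptor gene (CPM) and of 2 gene lists (mean log2 CPM of 20 genes each) from its median over the 12 libraries, old libraries left of the line and young libraries right of it. Young replicate 6 is low for Csf1r, Csf3r and both beta chains and highest for the cell cycle list, while old replicate 6 is highest for Il7r, Kit and both beta chains.

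Several receptor genes varied together across libraries. After each group was centred on its mean, Pearson's r and Spearman's rho of log2 CPM were computed for the 28 pairs of the 8 genes over 12 libraries. With 100000 resamples and adjustment over the 28 pairs, 6 pairs passed an adjusted p of 0.05 by r, all of them positive. Csf2ra was in none of these, and its r with each of the 7 others was negative, from -0.14 with Csf2rb to -0.58 with Csf1r (permutation adjusted p = 0.74 and 0.12). Without young replicate 6 and old replicates 2 and 3, 5 of these 7 values were positive, up to 0.70 with Csf2rb. With scaling by library size 6 pairs passed too, but both pairs of Csf3r with a beta chain were lost and 2 negative pairs of Csf2ra passed instead, with Csf1r (r = -0.71, permutation adjusted p = 0.033) and with Csf3r (r = -0.72, permutation adjusted p = 0.031). Libraries share their depth and the state of the culture, so these values describe the 12 libraries. The share of pairs that pass among all genes was not computed. The 6 pairs are therefore not shown to be particular to the receptors.

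Csf1r and Csf3r had the highest r. It was 0.94 (permutation p = 0.00013, adjusted p = 0.0018) and their rho 0.87 (permutation p = 0.00059, adjusted p = 0.0083), and r was 0.72 without the 2 libraries farthest from the median of Csf1r. Csf1r held 4619.8, 3538, 3956, 5197, 4849 and 3807 CPM in old replicates 1 to 6 and 4421, 4524, 4517, 4904, 5371 and 2524 CPM in young replicates 1 to 6. In the same order Csf3r held 159, 77.7, 107, 164, 155 and 154 CPM in old libraries and 132, 115, 124, 139, 179.8 and 39.0 CPM in young libraries. Young replicate 6 and old replicate 2 were lowest for both genes, and young replicate 5 was highest for both. These were also libraries at the ends of other scales. The mean log2 CPM of 20 cell cycle genes reached 6.36 (replicate 2) and 5.75 (replicate 3) among old libraries and 7.05 (replicate 6) among young libraries. The 9 other libraries lay between 4.16 and 5.37. That of 20 interferon-stimulated genes was 7.97 in young replicate 5 and 5.43 in young replicate 6. In the 9 libraries left without young replicate 6 and old replicates 2 and 3, r of Csf1r and Csf3r was 0.60 (permutation adjusted p = 0.28).

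The beta chain genes Csf2rb and Csf2rb2 moved as one, with r of 0.93 (permutation p = 2.0e-05, adjusted p = 0.00056) and rho of 0.90 (permutation p = 0.00013, adjusted p = 0.0036). Without the 2 libraries farthest from the median of Csf2rb, r was 0.84. Csf2rb held 242, 201, 259, 353, 308 and 383 CPM in old replicates 1 to 6 and 238, 266, 303, 307, 301 and 201 CPM in young replicates 1 to 6. Csf2rb2 held 336, 249.8, 315, 387, 342 and 465 CPM in the old and 306, 284, 333, 328, 340.4 and 239 CPM in the young libraries, in the same order. The part that reads shared by these near-identical genes have in this was not tested. In the 9 libraries r was 0.81 (permutation adjusted p = 0.10).

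Il7r varied with Kit, with r of 0.84 (permutation p = 0.00020, adjusted p = 0.0019) and rho of 0.79 (permutation p = 0.0035, adjusted p = 0.024), and with Csf2rb2, with r of 0.83 (permutation p = 0.0012, adjusted p = 0.0087) and rho of 0.75 (permutation p = 0.0069, adjusted p = 0.036). Without the 2 libraries farthest from the median these were 0.71 for Kit and Il7r, and 0.51 for Csf2rb2 and Il7r. Kit held 14.9, 5.95, 7.56, 8.18, 11.1 and 19.6 CPM in old replicates 1 to 6 and 12.2, 5.92, 6.27, 6.92, 7.01 and 8.33 CPM in young replicates 1 to 6. Il7r held 156, 85.4, 109.8, 136, 129 and 304 CPM in the old and 144, 100.3, 133, 115, 132 and 108 CPM in the young libraries, in the same order. Old replicate 6 was highest for both genes, and old replicate 2 and young replicate 2 were the lowest pair of libraries for both. Both pairs were called without old replicate 6 as well. In the 9 libraries left without young replicate 6 and old replicates 2 and 3, r was 0.75 with Kit and 0.80 with Csf2rb2 (permutation adjusted p = 0.12 and 0.10).

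Csf3r was also paired with the beta chains. Its r was 0.78 with Csf2rb2 (permutation p = 0.0029, adjusted p = 0.016) and 0.73 with Csf2rb (permutation p = 0.0040, adjusted p = 0.019), while rho was 0.70 and 0.54 with permutation adjusted p-values of 0.057 and 0.19. The pair with Csf2rb2 had r of 0.89 without the 2 libraries farthest from its median. That with Csf2rb had 0.38 without the 2 libraries farthest from the median of Csf2rb. It was not called without old replicate 2, old replicate 3 or young replicate 6, each left out alone, or with scaling by library size. By rho 6 pairs passed as well. They included Il3ra with Csf3r (rho 0.83, permutation adjusted p = 0.016) and with Csf1r (rho 0.74, permutation adjusted p = 0.036), whose r of 0.68 and 0.72 had permutation adjusted p-values of 0.085 and 0.071. In the 9 libraries left without young replicate 6 and old replicates 2 and 3, only the pair of Csf3r and Il3ra passed, with r of 0.96 (permutation adjusted p = 0.0028). There r of Csf3r fell to 0.32 with Csf2rb2 and 0.19 with Csf2rb (permutation adjusted p = 0.85 and 0.86).

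**Figure D4:**
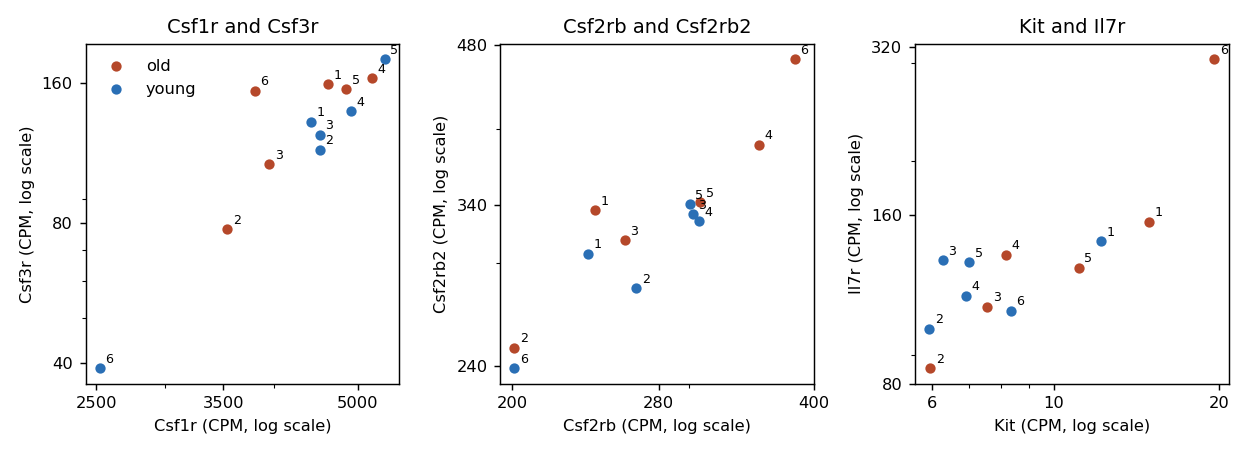
CPM of 3 pairs of receptor genes in the 12 libraries on log axes, old in red and young in blue, each point labelled with its replicate number. The points rise together in each panel. Old replicate 6 is highest, at 19.6 CPM of Kit and 304 CPM of Il7r, and young replicate 6 is lowest, at 2524 CPM of Csf1r and 39.0 CPM of Csf3r.

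Promoter sequences bear on genes that move together, and 8 RefSeq promoters of 7 of the 9 genes were searched (GRCm38.p6, 250 bases before to 50 after the start). Csf1r was left out of this set, and no promoter of Csf2rb was available. Those of 4 genes that took part in called pairs are shown. Capitals mark matches to GAGGAA, the core that PU.1 binds in myeloid promoters, or to TTCNNNGAA, the palindrome of STAT5, on either strand. They lie at chr15:78305672-78305971 on the minus strand for Csf2rb2, chr4:126024409-126024708 on the plus strand for Csf3r, chr15:9529827-9530126 on the minus strand for Il7r and chr5:75574737-75575036 on the plus strand for Kit.
Csf2rb2: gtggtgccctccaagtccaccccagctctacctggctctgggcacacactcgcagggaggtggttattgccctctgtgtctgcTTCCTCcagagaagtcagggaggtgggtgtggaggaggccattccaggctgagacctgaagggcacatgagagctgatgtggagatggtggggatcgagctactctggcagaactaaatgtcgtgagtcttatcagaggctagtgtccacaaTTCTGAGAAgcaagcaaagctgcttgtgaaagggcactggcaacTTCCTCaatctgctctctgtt
Csf3r: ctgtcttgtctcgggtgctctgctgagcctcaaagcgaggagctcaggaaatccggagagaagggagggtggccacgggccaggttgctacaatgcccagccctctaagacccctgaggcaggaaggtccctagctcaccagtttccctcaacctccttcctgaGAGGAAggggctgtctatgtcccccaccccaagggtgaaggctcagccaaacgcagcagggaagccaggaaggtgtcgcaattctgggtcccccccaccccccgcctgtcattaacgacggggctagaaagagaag
Il7r: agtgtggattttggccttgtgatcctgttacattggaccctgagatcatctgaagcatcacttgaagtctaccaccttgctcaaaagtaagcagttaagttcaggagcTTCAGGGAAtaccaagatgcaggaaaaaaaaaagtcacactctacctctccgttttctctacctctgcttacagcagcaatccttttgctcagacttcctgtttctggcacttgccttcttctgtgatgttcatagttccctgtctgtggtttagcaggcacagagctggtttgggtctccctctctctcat
Kit: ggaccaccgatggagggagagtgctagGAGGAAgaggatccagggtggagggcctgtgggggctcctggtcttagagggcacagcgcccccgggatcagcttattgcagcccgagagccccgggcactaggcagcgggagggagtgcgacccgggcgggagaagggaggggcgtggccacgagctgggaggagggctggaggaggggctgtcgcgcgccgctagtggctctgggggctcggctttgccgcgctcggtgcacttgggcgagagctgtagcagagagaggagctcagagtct

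GAGGAA was found in 5 of the 8 promoters, of 4 genes, and in 28.3% of all 32851 promoters of the table. Csf2rb2 has matches that begin at positions -167 and 30 relative to the start, Csf3r 1 at -86 and Kit 1 at -223, and the fourth gene, Csf2ra, has adjoining matches at -14 and -8. TTCNNNGAA was found in Csf2rb2 at -15 and in Il7r at -142, and in 8.30% of all promoters. The promoters of Il3ra and Flt3 held neither set of letters. A match is a description of the sequence, and no binding was measured.

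The genes most like each receptor were listed among genes of at least 5 CPM, by Pearson's r of log2 CPM over the 12 libraries and with no test. For Csf1r they were Ikbke (r = 0.990), Irf8, a transcription factor of the monocyte lineage (0.987), and Cyp27a1 (0.987). For Csf3r they were Tlr9 (0.985), Unc93b1 (0.985) and Il6st (0.984). Csf2rb2 was most like Sppl2a (0.974), Sema4d (0.966) and Peli1 (0.964), and Csf2rb most like Ciita (0.942), Tmem67 (0.938) and Araf (0.938). Those of Csf2ra were Sh3glb2 (0.923), S100a11 (0.921) and Plec (0.867), and those of Il3ra included Rab11b (0.960) and Agtrap (0.946). Those of Kit were Emp1 (0.960), Ywhag (0.959) and Gk (0.954). Il7r was most like Atp6v0d2, a proton pump subunit of osteoclasts (0.976), Tlr13 (0.974) and Dnmt3a (0.970).

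Most ligands of the receptors were low or at 0 in the cells' own RNA. Of 10 ligand genes, Il34, Csf2, Il3 and Il5 had no count in any library, which allows up to 0.155 CPM in the shallowest library (3 counts), and Csf3 had 2 counts in 2 libraries. The limit for a count of 0 takes counts as separate events and would be higher if both mates of a pair were counted. Csf1, which encodes M-CSF itself, was at 10.5 to 27.1 CPM in old and 10.2 to 28.4 CPM in young libraries. Kitl, the ligand of Kit, had the highest mean over the 12 libraries, although Csf1 exceeded it in 5 of them. Kitl was at 25.0 ± 4.66 CPM in old and 17.8 ± 3.10 CPM in young libraries (SD, n = 6 each) (log2 fold change 0.49, edgeR adjusted p = 0.77). None of the 5 ligand genes that passed the filter was called.

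Genes that pass the receptors' signals on were present in both groups without a call. Of 96 genes in 7 pathway lists 83 passed the filter, 43 with a positive and 40 with a negative log2 fold change and a median of 0.02. None of the 83 was called by edgeR, by DESeq2 or by limma voom, and 5 had an unadjusted p below 0.05 in edgeR, which is 6.02% against 5.47% of all genes tested. They included Kitl, Stat5a, Adam10 and Cblb. Partner chains were led by Il4ra, whose mean was 187 ± 32.8 CPM in old and 190.2 ± 49.0 CPM in young libraries. Stat6 was at 325 ± 14.8 and 329 ± 15.2 CPM, and Tyrobp, an adaptor of myeloid receptors, at 1359 ± 58.0 and 1464 ± 163 CPM. The phosphatase gene Ptpn6, a brake on these receptors, was at 405 ± 40.6 and 451 ± 50.5 CPM, and Spi1, which encodes PU.1, at 483 ± 33.4 and 537 ± 67.1 CPM. The survival gene Mcl1 was at 1008 ± 125 and 958 ± 186 CPM (old then young, SD, n = 6 each). The medians of the log2 fold changes were 0.11 for 5 ligands, -0.02 for 7 partner chains, 0.08 for 9 JAK and STAT genes and 0.02 for 11 lineage factors, and -0.14 for 14 early targets. The 24 kinases and adaptors were split into 12 positive and 12 negative, and the 13 brakes and shedding enzymes into 6 and 7. Both lists that stand for the state of the cultures leaned to lower values in old libraries without a called gene. All 20 cell cycle genes had a negative log2 fold change, with a median of -0.31, and 18 of 20 interferon-stimulated genes did, with a median of -0.18. Both leans turned with a single library. Without young replicate 6, 19 of 20 cell cycle genes had a positive log2 fold change, with a median of 0.33. Without young replicate 5, 16 of 20 interferon-stimulated genes did, with a median of 0.14. Without young replicate 6 and old replicates 2 and 3 together, 19 of 20 cell cycle genes were negative again, with a median of -0.6. In that setting 13 of 20 interferon-stimulated genes were negative, with a median of -0.05. The 11 monocyte and progenitor markers, 6 of which passed the filter, summed to between 40.7 and 135 CPM in old and between 59.4 and 127 CPM in young libraries, highest in old replicate 6 and young replicate 6.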

How the data were processed

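RNA of 12 macrophage libraries, 6 old and 6 young, went into TruSeq RNA v2 libraries, which keep no strand (kit per the labels). The authors deposited raw counts per gene. Per the file headers, these came from featureCounts 1.6.0 with GRCm38 genes of Ensembl release 100. The submitters' processing notes also list STAR, FastQC and mm10, with no version. All 12 counts of Flt3 were even, so mates may have been counted singly, and counts may overstate the number of fragments. The limit given for a count of 0 covers counting error only, while the intervals of fold changes come from the spread between libraries.

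From the counts, edgeR 4.0.16 in R 4.3.3 (TMM scaling, filterByExpr, robust quasi-likelihood test, Benjamini-Hochberg adjustment over all genes) compared old with young macrophages over 12620 genes that held 99.9% of the counts. CPM used TMM library sizes. TPM used the exonic length in the file. Spread was compared by the mean absolute deviation of log2 CPM from the group median, in a two-sided permutation test of those deviations. Pairs of receptors were compared by permutation of group-centred log2 CPM (prior count 2, SciPy 1.17.1). Alternatives were other scalings and filters, DESeq2 1.42.0, limma 3.58.1 voom, a replicate block, leaving out each library, and leaving out young replicate 6 with old replicates 2 and 3. No library was a copy of another.

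The text names all 9 receptor genes, up to 4 called genes or else the most abundant gene of each pathway list, and the 3 genes most like each receptor. Some genes that the rule or a list holds are not reported here. Genes outside this rule, such as those with an unadjusted p below 0.05 and the T cell genes, were chosen after their values were seen. The receptors and lists were chosen with earlier results of these data known. Promoters came from RefSeq tables, and coding sequences from GENCODE transcripts of GRCm38.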

Additional observations from a re-analysis of the deposited data

Results flagged for a closer look

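In 2 of the 18 groups of 6 libraries looked at, 1 library lay far from the other 5, by a gap that was 0.666 and 0.677 of the group's range and passed Dixon's 95% critical value. Chance gives about 1 such group in 20. Csf1r was at 2524 CPM in young replicate 6, and the other young libraries ran from 4421 to 5371 CPM. That library had the highest mean log2 CPM of cell cycle genes, 7.05. Il7r was at 304 CPM in old replicate 6, and the other old libraries ran from 85.4 to 156 CPM. That library held the T cell transcripts.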

How the results depend on the processing

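No receptor gene and no pathway list gene was called under any alternative run. No difference in spread was called either, which says little. In the main run of that test 43 genes reached its smallest p, where 547 were needed for a call. The spread of Kit had an unadjusted permutation p of 0.037 without young replicate 1. For fold changes, the lowest adjusted p of a receptor was 0.19, for Kit and Csf2rb2 without young replicate 6 and old replicates 2 and 3. An unadjusted p of the fold change below 0.05 was found for Kit in 4 and for Csf2rb2 in 2 of 22 alternatives. The lowest was 0.014 (edgeR), for Csf2rb2 without the libraries just named, where 2302 of 12744 genes tested had a p below 0.05. Over 22 alternatives the log2 fold change kept its sign in all for Csf2ra, Csf2rb, Csf2rb2, Kit (0.29 to 0.81) and Il7r (0.01 to 0.54), in 21 for Csf3r, in 15 for Il3ra and in 14 for Csf1r. The number of receptor pairs called, 6 with all libraries, ranged from 4 (without old replicate 2) to 10 (without young replicate 5) when 1 library was left out, and was 1 without young replicate 6 and old replicates 2 and 3 together, where 9 libraries remain. The cause was not tested. Scaling by library size kept the number at 6 with 4 of the same pairs. The pair of Csf2rb and Csf3r was called in 12 of 17 alternatives, that of Csf2rb2 and Csf3r in 14, and each of the 4 others in 16. Over all genes edgeR called 2, DESeq2 called 11, limma voom 3, and edgeR without a low-count filter 4. Deviations of libraries with the same replicate number correlated between -0.26 and 0.65, and 2 of 6 numbers had their own number as best partner, so the numbers were not taken as pairs. The replicate block called 4 genes over all and 0 receptors, with a log2 fold change of 0.46 for Kit (edgeR adjusted p = 0.78). Depth limits Flt3, with at most 16 counts in a library.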
